A study of Mus musculus with 2 samples.

Results

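Delta cells are the somatostatin-secreting cells of the pancreatic islet, and 10 genes labelled as enriched in them beyond somatostatin (Sst) were followed here: Rbp4, Ly6h, Fam159b, Gap43, Ppp1r17, Arg1, Nptx2, Dpp6, Casr and Ptprz1. They were selected on their higher level in delta cells in these same libraries, so their level in delta cells against other cells is a description and supports nothing. All 10 were found among the 27998 genes of both deposited tables. The data are single-cell RNA sequencing of islets from C57BL/6 mice at postnatal day 70, with 1 library from mice carrying a beta cell-specific miR-503 transgene and 1 library from wild type mice. The labels and notes at hand name neither the promoter behind the transgene nor the number and sex of the mice or the sequencing batches. Since each genotype had 1 library, there was no replicate check and no test between genotypes, and all intervals below are 95% intervals that cover counting error only.

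Somatostatin from delta cells restrains the release of insulin from beta cells and of glucagon from alpha cells, and mouse delta cells depend on the homeobox factor Hhex. Delta cells carry neurite-like processes and share many membrane proteins with neurons. The 10 genes fall into secreted proteins, surface proteins and receptors, a channel subunit, and proteins inside the cell. Rbp4 encodes the plasma carrier of retinol, and Nptx2 a secreted neuronal pentraxin that gathers AMPA receptors at synapses. Ly6h encodes a lipid-anchored Ly6 protein that binds nicotinic acetylcholine receptors, and Fam159b a small membrane protein of the shisa-like group, named Shisal2b in the reference annotation. Ptprz1 encodes a receptor-type tyrosine phosphatase that binds pleiotrophin, Casr the G protein-coupled receptor for extracellular calcium, and Dpp6 an auxiliary subunit of Kv4 potassium channels. Gap43 encodes a membrane-bound growth cone protein, Ppp1r17 an inhibitor of protein phosphatases known from cerebellar Purkinje cells, and Arg1 the arginase that splits arginine into ornithine and urea.

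The microRNA behind the transgene is shown because the 2 libraries differ in it by design. Its mature 5p strand, from RefSeq on GRCm38.p6 (chrX:53054027-53054049, minus strand), is printed 5′ to 3′ with the seed, bases 2 to 8, in capitals.
mmu-miR-503-5p: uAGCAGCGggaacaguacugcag
No other mature mouse microRNA in the RefSeq table shares this seed. The complementary site, CGCTGCT, was absent from every annotated 3′ UTR of the 10 genes in GENCODE M21, while 4.1% of 21707 genes with such a UTR held it. A missing match says only that these letters do not occur there.

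Promoters are shown for Sst, whose transcripts defined the cells, and for the most abundant members Rbp4 and Fam159b. That of Casr, the only member not highest in delta cells in the main comparison, is shown too. Each covers 250 bases before and 50 after an annotated start (RefSeq, GRCm38.p6, minus strand for all). Capitals mark TAAT, the core bound by homeodomain factors, and TGACG, the partial cAMP response element, on either strand. The windows are chr16:23890795-23891094 for Sst, chr19:38124762-38125061 and chr19:38125272-38125571 for Rbp4, chr13:104863844-104864143 for Fam159b and chr16:36562085-36562384 for Casr.
Sst: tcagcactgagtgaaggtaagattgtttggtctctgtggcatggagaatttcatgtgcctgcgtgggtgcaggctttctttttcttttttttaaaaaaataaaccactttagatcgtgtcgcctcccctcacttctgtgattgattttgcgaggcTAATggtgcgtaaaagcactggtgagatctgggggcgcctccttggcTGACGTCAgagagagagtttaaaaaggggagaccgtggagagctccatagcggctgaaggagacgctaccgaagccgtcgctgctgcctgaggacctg
Rbp4, inner start: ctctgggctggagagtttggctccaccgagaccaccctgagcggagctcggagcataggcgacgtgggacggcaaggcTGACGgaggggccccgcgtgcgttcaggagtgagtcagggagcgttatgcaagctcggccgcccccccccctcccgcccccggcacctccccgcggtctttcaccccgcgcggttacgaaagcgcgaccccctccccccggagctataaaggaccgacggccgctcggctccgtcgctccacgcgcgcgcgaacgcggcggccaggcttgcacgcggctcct
Rbp4, outer start: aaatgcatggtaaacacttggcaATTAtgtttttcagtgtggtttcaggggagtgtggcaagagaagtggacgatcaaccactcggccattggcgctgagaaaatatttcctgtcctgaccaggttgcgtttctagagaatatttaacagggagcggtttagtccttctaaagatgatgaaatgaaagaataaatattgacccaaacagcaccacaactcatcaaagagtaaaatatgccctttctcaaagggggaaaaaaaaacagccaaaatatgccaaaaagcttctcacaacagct
Fam159b: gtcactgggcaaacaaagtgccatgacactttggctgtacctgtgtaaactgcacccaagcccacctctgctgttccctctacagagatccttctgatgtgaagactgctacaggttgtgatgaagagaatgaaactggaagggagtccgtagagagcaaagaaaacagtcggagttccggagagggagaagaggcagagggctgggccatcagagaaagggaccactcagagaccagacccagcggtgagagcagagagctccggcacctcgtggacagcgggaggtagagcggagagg
Casr: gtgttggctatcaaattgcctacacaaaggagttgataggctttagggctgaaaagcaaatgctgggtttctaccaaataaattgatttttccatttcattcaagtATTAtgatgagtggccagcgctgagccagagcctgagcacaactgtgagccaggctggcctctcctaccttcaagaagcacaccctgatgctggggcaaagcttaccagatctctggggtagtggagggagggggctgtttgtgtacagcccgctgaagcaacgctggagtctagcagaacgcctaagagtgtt
The Sst window held 1 TAAT and the full palindrome TGACGTCA, whose letters contain TGACG on both strands. TAAT was found in 58.0% of 32851 promoter windows of this length, TGACG in 20.8% and TGACGTCA in 1.79%. Among the 8 windows that the table gave for 5 members, 4 held TAAT, 1 held TGACG (the inner start of Rbp4) and 0 held TGACGTCA. The remaining 5 members, Ly6h, Gap43, Ppp1r17, Arg1 and Nptx2, had no window there and were not searched. The windows of Dpp6 and Ptprz1 were counted but are not printed. Counts from 3′ tags do not tell which start was used.

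The 10 genes lie apart from each other on the mouse genome (GRCm38, GENCODE M21). Gap43 (chr16:42248442-42340651) and Casr (chr16:36493696-36562141) share chromosome 16 with Sst. Dpp6 (chr5:26817203-27727505), the longest of the 10, and Nptx2 (chr5:144545902-144557478) share chromosome 5, and Ppp1r17 (chr6:56017497-56032689) and Ptprz1 (chr6:22875502-23052916) chromosome 6. Rbp4 lies at chr19:38116629-38125281, Ly6h at chr15:75551268-75567255, Fam159b at chr13:104845283-104863893 and Arg1 at chr10:24915221-24927484.

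The deposited tables held 4158 transgenic and 4540 wild type cell barcodes with 109243270 and 104677537 unique molecular identifiers (UMIs, each counting 1 captured transcript). The 2 libraries shared 25 barcode sequences. After filtering, 3977 transgenic and 4339 wild type cells were kept. Hormone shares of each cell's UMIs defined the types: Sst at least 2% with Ins1 and Ins2 together below 10% for delta, insulin at least 25% for beta, Gcg at least 3% for alpha and Ppy at least 3% for gamma. Cells meeting more than 1 of these gates made up 8.75% of transgenic and 5.09% of wild type cells and were left out of the main comparison. Cells with an Xist UMI numbered 15 of 97 transgenic and 0 of 68 wild type delta cells, and 351 of 2630 and 8 of 3202 beta cells.

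Delta cells meeting no other gate numbered 97 in the transgenic and 68 in the wild type library, 2.44% and 1.57% of kept cells. The gate as written, without regard to the other hormones, was met by 332 transgenic and 177 wild type cells. The difference came from cells that also passed the Ppy gate (150 transgenic, 68 wild type), the Gcg gate (64 and 30) or both (21 and 11). The 97 transgenic and 68 wild type cells had median depths of 9565 and 8743 UMIs, against 29038 and 23204 UMIs in beta cells. Their median Sst share was 11.8% and 8.93% of UMIs.

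The other fixed delta markers were mostly highest in these cells. Levels are given in CPM, the UMIs of a gene summed over the cells of a type in each library and brought to a common total, with trimmed mean of M-values scaling. Hhex was at 107 and 98.1 CPM in transgenic and wild type delta cells, and at most 10.0 CPM in any other type. The fatty acid receptor gene Ffar4 was also highest in delta cells, at 135 and 141 CPM. Of the remaining fixed markers, Isl1 was highest in delta cells at 133 and 116 CPM and Crhr2 at 3.42 and 7.77 CPM. Pdx1 was highest in beta cells, and Ghsr rested on 3 transgenic and 4 wild type UMIs. The beta cell gene Ucn3 was at 9.58 CPM in transgenic and 11.7 CPM in wild type delta cells, against 298 and 334 CPM in beta cells. Other beta cell transcripts were plentiful in delta cells. Iapp was at 19220 and 16520.5 CPM, against 69088 and 66544 CPM in beta cells. Ins2 was at 15744 and 14791 CPM, against 724381 and 503845 CPM. Alpha and gamma transcripts were present to different degrees. The alpha cell factors Irx1 and Irx2 gave 2 and 8 UMIs in transgenic and 1 and 6 UMIs in wild type delta cells. Gcg itself was at 3114 and 2345 CPM, against 220592 and 189066 CPM in alpha cells. Gc, which encodes the vitamin D-binding protein, was at 99.2 and 93.2 CPM in delta cells, against 161 and 130 CPM in alpha cells and 45.3 and 24.4 CPM in beta cells. The gamma cell hormone gene Ppy was at 8748 and 7670 CPM, against 405275 and 236581 CPM in gamma cells. Pyy, encoding peptide YY, was at 18524 and 16514 CPM in delta cells, against 14659 and 17016 CPM in alpha cells and 62377 and 51241 CPM in gamma cells. The part of other cells' transcripts in the member levels was not tested. Member levels are set against Sst and across hormone gates further on. The 9 immune markers summed to 138 and 101 CPM in transgenic and wild type delta cells, most of it Cd74 and C1qa, which beta cells held at 126 and 40.7 CPM in the transgenic and 87.1 and 38.3 CPM in the wild type library. Ductal markers summed to 146 and 148 CPM, most of it Krt7, which was higher in beta cells. Endothelial markers summed to 21.9 and 26.2 CPM with Cdh5 at 0 in both, stellate markers to 1.37 and 2.91 CPM with Col1a1, Pdgfrb and Acta2 at 0, and Schwann markers to 15.1 and 16.5 CPM with Sox10 and Cdh19 at 0.

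**Figure D1:**
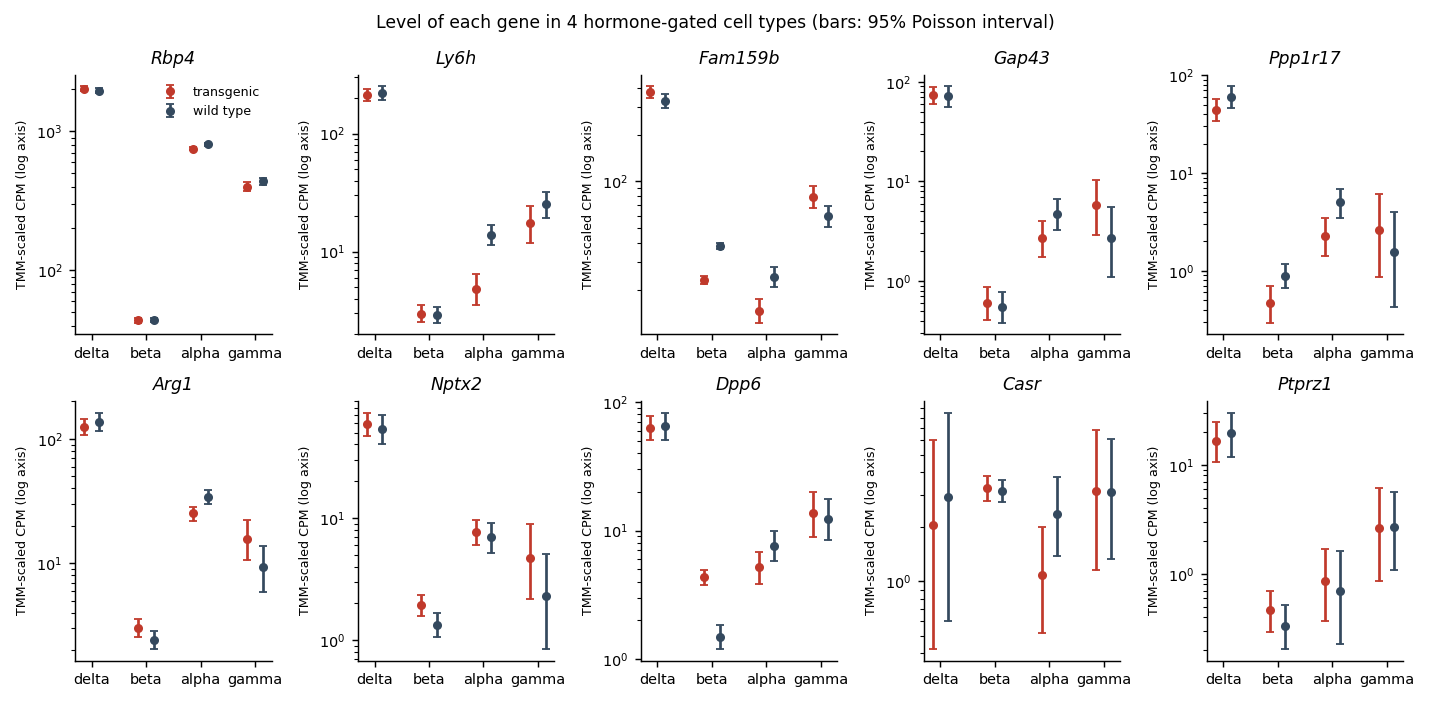
Level of each of the 10 genes in delta, beta, alpha and gamma cells, in scaled CPM on a log axis, transgenic (red, left) and wild type (dark, right); bars are 95% Poisson intervals. Casr is the exception among the 10, with its beta cell points of 3.27 and 3.16 CPM inside the wide delta cell intervals.

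In both libraries 9 of the 10 genes were highest in delta cells among the 4 types, all but Casr. When totals were not scaled, Casr led in delta cells of both libraries. In the wild type library it also led with hormone UMIs left out of the totals, for the mean over cells and with stricter gates. Among 7374 genes with at least 20 UMIs in delta cells, 24.6% were highest in delta cells in the transgenic library and 28.2% in the wild type library. Nothing is read from this, since the genes were selected on this contrast.

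Rbp4 was by far the most abundant member, at 2028 CPM in transgenic delta cells (2964 UMIs) and 1953 CPM in wild type delta cells (2011 UMIs). It was also the least restricted of the 9, since alpha cells held 748.5 and 805 CPM and gamma cells 399 and 436 CPM. Delta cells exceeded alpha cells 2.71-fold (2.59 to 2.83) in the transgenic and 2.43-fold (2.31 to 2.55) in the wild type library, and beta cells 46.3-fold and 44.6-fold. Nptx2 stood at 58.8 CPM in transgenic and 53.4 CPM in wild type delta cells. Alpha cells came next in both libraries, 7.70-fold (5.56 to 10.7) and 7.68-fold (5.14 to 11.5) below delta cells.

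The surface proteins shared gamma cells as the next-highest type. Ly6h was at 211 CPM in transgenic and 220.4 CPM in wild type delta cells, 12.2-fold (8.50 to 18.0) and 8.79-fold (6.64 to 11.8) above gamma cells. Fam159b was at 376 and 329 CPM, only 4.74-fold and 5.54-fold above gamma cells. It was also well counted in beta cells, at 23.1 CPM transgenic and 38.2 CPM wild type on 1145 and 2275 UMIs. Ptprz1 was the rarest of the 9, at 16.4 CPM on 24 UMIs and 19.4 CPM on 20 UMIs, and exceeded gamma cells 6.25-fold (2.34 to 21.0) and 7.19-fold (2.92 to 20.1).

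Casr was not highest in delta cells in the main comparison, on too few UMIs to place it. It gave 3 UMIs in 97 transgenic and 3 UMIs in 68 wild type delta cells, 2.05 CPM (0.423 to 6.00) and 2.91 CPM (0.601 to 8.51). Beta cells held 3.27 and 3.16 CPM on 162 and 188 UMIs, and gamma cells 3.15 and 3.09 CPM. The order was beta, gamma, delta and alpha in both libraries, and the counting intervals of all 3 neighbouring steps included equality. By the gate as written delta cells held 13 and 8 Casr UMIs, 2.16 and 2.45 CPM, again below beta cells. The log2 ratios over beta cells were then -0.56 (-1.50 to 0.25) and -0.33 (-1.57 to 0.67), with intervals that included 0.

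Dpp6, the channel subunit, was at 63.0 CPM in transgenic and 65.1 CPM in wild type delta cells. Gamma cells came next with 13.7 and 12.4 CPM, 4.61-fold (2.95 to 7.42) and 5.27-fold (3.41 to 8.30) lower. The distance to beta cells differed between the libraries, 14.5-fold (11.2 to 18.5) in the transgenic and 43.6-fold (31.2 to 60.5) in the wild type.

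The proteins inside the cell included the 2 most restricted members. Gap43 was at 73.9 and 71.9 CPM in delta cells, against 5.78 CPM in transgenic gamma cells and 4.73 CPM in wild type alpha cells, the next types there. The ratios were 12.8-fold (6.87 to 26.4) and 15.2-fold (10.0 to 23.5). Ppp1r17 was at 44.5 and 60.2 CPM and exceeded its next types, transgenic gamma and wild type alpha cells, 16.9-fold (6.90 to 53.9) and 12.0-fold (7.85 to 18.7). The order of alpha and gamma cells was within counting error for Gap43 in both libraries and for Ppp1r17 in the transgenic one. Arg1 was at 124.5 and 138 CPM in delta cells and resembled Rbp4 in having alpha cells next, at 25.2 and 34.3 CPM, a distance of 4.94-fold (4.05 to 6.03) and 4.02-fold (3.24 to 4.96). Where cells meeting several gates were kept in each gate they met, so that the same cells entered both sides, the log2 ratio over the next type shrank to between 0.73 and 1.17 for the 9 genes in the transgenic library and between 1.08 and 2.01 in the wild type library. In the main comparison it lay between 1.44 and 4.08, and between 1.28 and 3.93.

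Free RNA in droplets puts abundant transcripts into cells that do not make them, so member UMIs outside delta cells were set against Sst UMIs in the same cells. Per 1000 Sst UMIs, Gap43 gave 0.872 in transgenic and 1.20 in wild type beta cells, against 0.887 and 1.18 in delta cells of the same libraries. The ratio in beta cells was thus 0.984-fold (0.633 to 1.49) and 1.02-fold (0.654 to 1.55) that in delta cells. Ly6h was 1.70-fold and 1.75-fold above its delta cell ratio in beta cells. Casr was 191-fold (64.3 to 937) and 143-fold (48.2 to 699) above, on 3 delta cell UMIs per library, Fam159b 7.37-fold and 15.3-fold, and Dpp6 8.31-fold and 3.03-fold. In alpha cells Rbp4 was 29.1-fold and 15.7-fold above its ratio in delta cells and Arg1 15.9-fold and 9.47-fold. Gap43 was at its delta cell proportion to Sst in beta cells, but above it in alpha cells, 2.869-fold in the transgenic and 2.502-fold in the wild type library. Casr, Fam159b and Dpp6 in beta cells, and Rbp4 and Arg1 in alpha cells, were well above theirs. Rbp4, Arg1, Nptx2 and Ptprz1 in beta cells also had intervals above equality in both libraries. That of Ppp1r17 included equality in transgenic beta cells only. Delta cells were gated on their Sst share, which lowers every such ratio in them. The part of free RNA in these UMIs was not tested.

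Cells that met no gate, 214 transgenic and 331 wild type, also held members. This set can include Sst-rich cells whose insulin share lay between the limits of the delta and beta gates. A looser delta gate, with Sst of at least 1% and insulin below 25%, gave 100 transgenic and 86 wild type delta cells. The main gate gave 97 and 68. The part of such Sst-containing cells in the member UMIs given here was not tested. Levels here are non-hormone CPM, unscaled CPM with the UMIs of the 5 gating hormone genes left out of the total. Over all these cells Rbp4 was at 80.9 and 289 non-hormone CPM, Fam159b at 26.0 and 55.2, Ly6h at 8.54 and 24.6, and the other 7 members at between 0.407 and 14.7. The 134 transgenic and 101 wild type immune-like cells, with at least 3 immune markers, gave 43 and 238 Rbp4 UMIs, 7 and 28 of Fam159b, 4 and 19 of Ly6h, 1 and 14 of Dpp6, 1 and 4 of Gap43 and 4 and 3 of Arg1, a gene also known from macrophages. The 13 transgenic and 64 wild type endothelial-like cells gave 0 UMIs of Ly6h, Gap43, Ppp1r17, Arg1, Nptx2, Casr and Ptprz1 in either library. A few other cells held much more. Of 5 transgenic acinar-like cells 1 held 19 Ppp1r17 UMIs, which put the 5 at 176 non-hormone CPM, and the 5 held 18 Fam159b and 6 Gap43 UMIs, 167 and 55.6 non-hormone CPM. The single transgenic ductal-like cell gave 14 Fam159b, 10 Gap43 and 5 Ly6h UMIs, whereas 5 wild type ductal-like cells gave 4, 0 and 0.

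**Figure D2:**
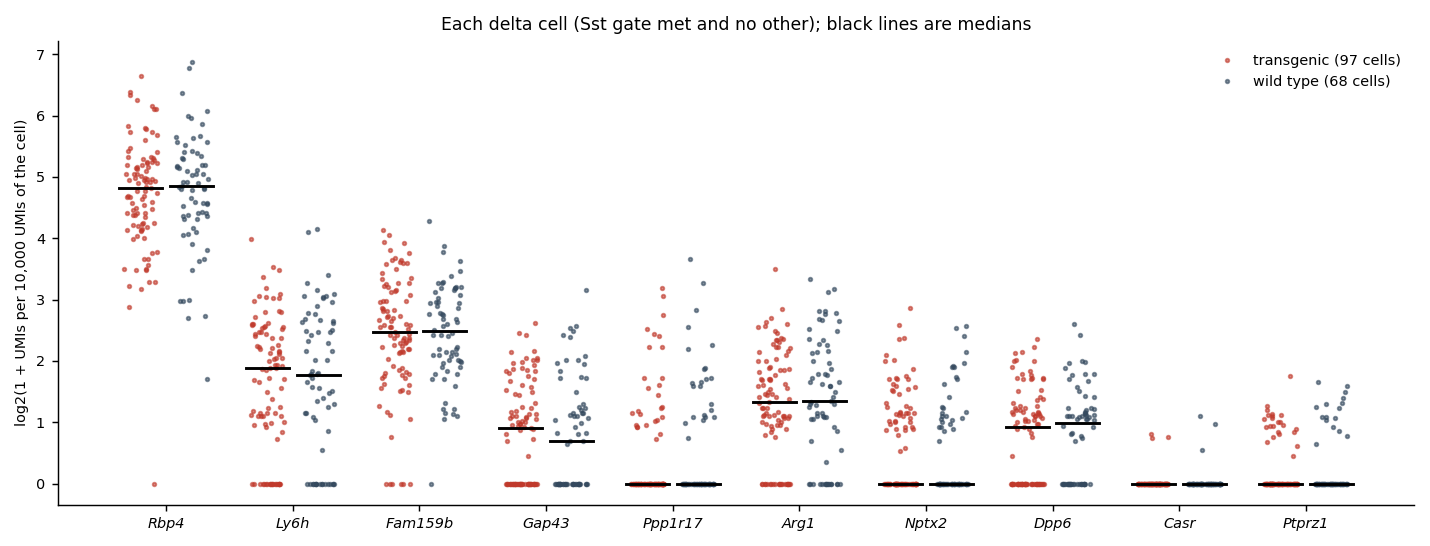
UMIs of each gene per 10,000 UMIs of the cell, as log2(1 + value), in each of 97 transgenic (red, left) and 68 wild type (dark, right) delta cells, with medians as black lines. Rbp4 was seen in all but 1 cell, whereas Ppp1r17, Nptx2, Casr and Ptprz1 have medians of 0 in both libraries.

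Within delta cells the members differed in how widely they were seen. Rbp4 had a lowest value of 0, a median of 27.3 and a highest of 98.7 UMIs per 10,000 in transgenic cells, and 2.28, 27.8 and 117 in wild type cells. Its single transgenic cell at 0 was the only delta cell without an Rbp4 UMI. Fam159b followed with medians of 4.57 and 4.59 and with 6 of 97 and 1 of 68 cells at 0. Ly6h had medians of 2.70 and 2.42, and Arg1 1.51 and 1.53, each with between 16 and 21 cells at 0 per library.

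To compare shares across depths, 5000 UMIs were drawn from each cell, hormone UMIs included, and every cell had that many. At that depth Rbp4 was seen in 99.0% of transgenic and 98.5% of wild type delta cells, against 95.5% and 94.8% of alpha cells, 64.4% and 60.7% of gamma cells and 11.9% and 11.9% of beta cells. Fam159b was seen in 87.6% and 86.8% of delta cells, against 12.5% and 20.5% of gamma cells and 6.01% and 11.3% of beta cells. Ly6h was seen in 63.9% and 64.7%, Arg1 in 62.9% and 52.9%, Dpp6 in 39.2% and 38.2% and Gap43 in 32.0% and 36.8%, against at most 1.67% of beta cells for these 4. In alpha and gamma cells the shares of these 4 were highest for Arg1 in alpha cells, at 11.1% and 16.0%, and otherwise at most 7.69%. Without thinning the Gap43 shares were 56.7% and 52.9% in delta cells and 1.03% and 0.593% in the deeper beta cells. Casr, at 3.09% and 2.94% of thinned delta cells on 3 and 2 cells, was not distinguishable at this depth from its share in gamma cells, 4.81% and 0.855%. Insulin made up a median of 60.5% and 50.3% of beta cell UMIs, so this depth does not equalize non-hormone UMIs between types. With 2000 non-hormone UMIs drawn instead, Fam159b was seen in 68.0% and 79.4% of delta cells and 5.90% and 10.2% of beta cells. Ly6h was then seen in 47.4% and 47.1% of delta cells, and Rbp4 in 47.1% and 54.7% of gamma cells.

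Ppp1r17 was concentrated in a minority of delta cells. It was at 0 in 70 of 97 transgenic and 45 of 68 wild type cells, while single cells reached 8.12 and 11.6 UMIs per 10,000. The richest 10 transgenic cells held 67.7% of its UMIs and the richest 7 wild type cells 59.7%. Its variance over its mean at 5000 UMIs was 2.53 and 2.37, a ratio that is 1 for pure counting. Dpp6, with a mean at 5000 UMIs of 0.505 and 0.544 against 0.247 and 0.485 for Ppp1r17, had 0.954 and 1.18 and was thus spread more evenly. The same ratio was 6.31 and 7.02 for Rbp4 and 1.78 and 2.56 for Ly6h. Their means were higher, 15.0 and 15.4 for Rbp4 and 1.45 and 1.78 for Ly6h. The ratio can rise with the mean, so it does not rank these genes by clumping. The richest 10 transgenic and 7 wild type cells held 24.1% and 24.7% of Rbp4 UMIs.

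Most delta cells showed several members at once. A thinned delta cell showed a median of 4 of the 10 genes in the transgenic and 5 in the wild type library. At least 3 of them were seen in 87.6% (79.4 to 93.4, exact binomial) of transgenic and 95.6% (87.6 to 99.1) of wild type delta cells. The same held for 0.266% and 0.593% of beta cells, 3.42% and 7.0% of alpha cells and 7.69% and 13.7% of gamma cells. Within delta cells no members were tightly tied to each other. Over the 45 pairs, Spearman correlations ran between -0.28 and 0.24 across 97 transgenic cells and between -0.33 and 0.27 across 68 wild type cells, with the same sign in 23 pairs. These cells share a library and differ in depth, and their counts are sparse.

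Delta cells above their library's median Sst share, summed together, also held more of several members. Rbp4 was at 4131 non-hormone CPM in the higher-Sst transgenic cells against 2981 in the lower-Sst ones, and at 4113 against 2851 in wild type cells. The log2 ratios were 0.47 (0.37 to 0.58) and 0.53 (0.40 to 0.66). Arg1 gave 0.45 (0.02 to 0.89) and 0.51 (0.01 to 1.01), and Fam159b 0.26 (0.02 to 0.51) and 0.40 (0.09 to 0.72). Ppp1r17 pointed opposite ways, -0.29 (-1.06 to 0.46) and 0.88 (0.11 to 1.69). Nptx2 gave -0.07 and -0.04 and Dpp6 0.07 and 0.01, with intervals that included 0. The split used the Sst share that also defined the gate. It set 49 against 48 transgenic and 34 against 34 wild type cells, and the intervals cover counting error only. In thinned delta cells the variance of Rbp4 over its mean was 6.31 transgenic and 7.02 wild type, above that of pure counting. Its intervals are therefore narrower than its spread between cells. Cell by cell the relation to Sst share was weak on another scale, member UMIs over all UMIs of the cell, Sst included. Spearman correlations were 0.20 across 97 transgenic and 0.08 across 68 wild type cells for Rbp4, 0.13 and 0.18 for Arg1, and -0.02 and 0.10 for Fam159b. They are therefore not on the non-hormone scale of the ratios above. At the gate's threshold there were few cells: 0 transgenic and 3 wild type cells had an Sst share between 2% and 3%, and 1 and 3 cells outside the gate had between 1% and 2%. The wild type cells just inside the threshold held 94 Rbp4 UMIs, 1591 non-hormone CPM, and those just outside 115 UMIs, 1377 non-hormone CPM.

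**Figure D3:**
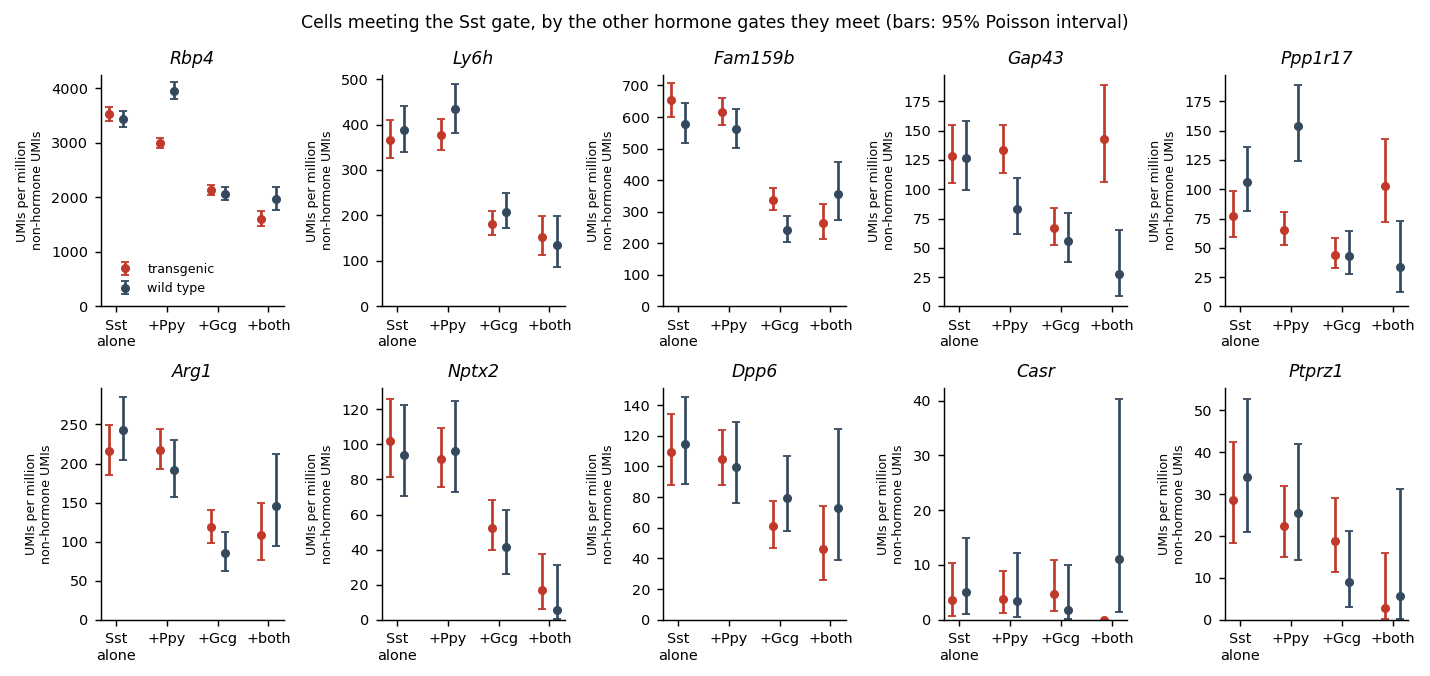
Level of each gene in non-hormone CPM in cells meeting the Sst gate, split by the other hormone gates they meet, transgenic (red, left) and wild type (dark, right); bars are 95% Poisson intervals. Rbp4, Ly6h, Fam159b and Nptx2 are lower in the Gcg-passing subsets in both libraries.

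Cells that passed both the Sst and the Ppy gate carried Fam159b and Ly6h at levels close to those of cells passing Sst alone. They had median depths of 9614.5 and 9137.5 UMIs and median Ppy shares of 5.68% and 5.04%. Fam159b was at 617 transgenic and 562 wild type non-hormone CPM there, against 652 and 579 in Sst-alone cells. Ly6h was at 377 and 433, against 367 and 388. Nptx2 and Dpp6 were also close, but some members differed more. Rbp4 was at 2997 and 3952, against 3516 and 3434, and Gap43 at 133 and 82.9, against 128 and 126. Ppp1r17 was at 65.4 and 154, against 77.1 and 106. The median doublet scores of these Ppy-passing cells were 0.0107 and 0.0163. Cells that passed the Sst and Gcg gates were deeper, with medians of 19652 and 20247 UMIs, and held less. Rbp4 was at 2127 and 2060 non-hormone CPM in them, against 3516 and 3434 in Sst-alone cells. Nptx2 was at 52.5 and 41.5, against 102 and 93.9. Their median doublet scores were 0.0412 and 0.0438, against 0.0109 and 0.0148 in Sst-alone cells, and the part of doublets in the lower levels was not tested.

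Between genotypes all 10 genes lay within counting error of equality in delta cells. Of the 10, 4 were higher and 6 lower in the transgenic library, and 0 reached 1.5-fold in either direction, against a background of 8.41% of 7374 genes past that fold upward and 8.45% downward. The median log2 ratio was -0.05, against 0.01 for all genes. The interval limits of its middle members, Ly6h and Dpp6, averaged -0.41 and 0.31, which is no interval for the median itself. No counting interval excluded equality for any of the 10, while 3.85% of genes lay above and 3.39% below it.

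Rbp4 had the narrowest counting interval, with a log2 ratio of 0.05 (-0.03 to 0.14), which leaves out its spread between cells. Fam159b followed at 0.19 (-0.00 to 0.39) on 550 transgenic and 339 wild type UMIs. Ly6h stood at -0.06 (-0.31 to 0.19), Arg1 at -0.15 (-0.47 to 0.18), Gap43 at 0.04 (-0.40 to 0.49), Dpp6 at -0.05 (-0.52 to 0.43) and Nptx2 at 0.14 (-0.37 to 0.66). Ppp1r17 was farthest from 0 among well-counted genes, -0.44 (-0.96 to 0.09) on 65 and 62 UMIs. For Ptprz1 and Casr the intervals, -1.16 to 0.69 and -3.41 to 2.40, left several-fold differences in range. Sst itself was 1.37-fold higher in transgenic delta cells, at 83312 against 60823 CPM. Acinar transcripts summed to 75.3 CPM in transgenic and 22.3 CPM in wild type delta cells; their part in the member ratios was not tested.

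With the gate as written, on 332 and 177 cells, some ratios moved off 0. Gap43 was higher in transgenic cells, at 66.9 against 48.7 CPM, a log2 ratio of 0.46 (0.19 to 0.73), and Fam159b at 300.2 against 266 CPM, 0.17 (0.06 to 0.29). Ppp1r17 was lower in transgenic cells, at 38.8 against 56.1 CPM, -0.53 (-0.82 to -0.25), and Rbp4 at 1612 against 1788 CPM, -0.15 (-0.20 to -0.10). Thus 2 of the 10 had intervals above and 2 below equality, beside 6.12% and 4.67% of 10749 genes.

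These shifts were uneven across the subsets of the gate. In cells passing Sst and Ppy, Ppp1r17 was at 65.4 transgenic against 154 wild type non-hormone CPM, a log2 ratio of -1.24 (-1.68 to -0.79), and Rbp4 at 2997 against 3952, -0.40 (-0.47 to -0.32). In Sst-alone cells the 2 genes gave -0.46 (-0.98 to 0.07) and 0.03 (-0.05 to 0.12) on the same scale. In the 21 transgenic and 11 wild type cells passing all 3 gates, Ppp1r17 went the other way, 103 against 33.5 non-hormone CPM on 36 and 6 UMIs, and Gap43 was at 143 against 27.9 on 50 and 5 UMIs. A single transgenic cell held 11 of those 36 Ppp1r17 UMIs and a single transgenic cell 11 of those 50 Gap43 UMIs. Since Ppp1r17 is clumped in few cells, its counting intervals are narrower than its spread between cells.

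**Figure D4:**
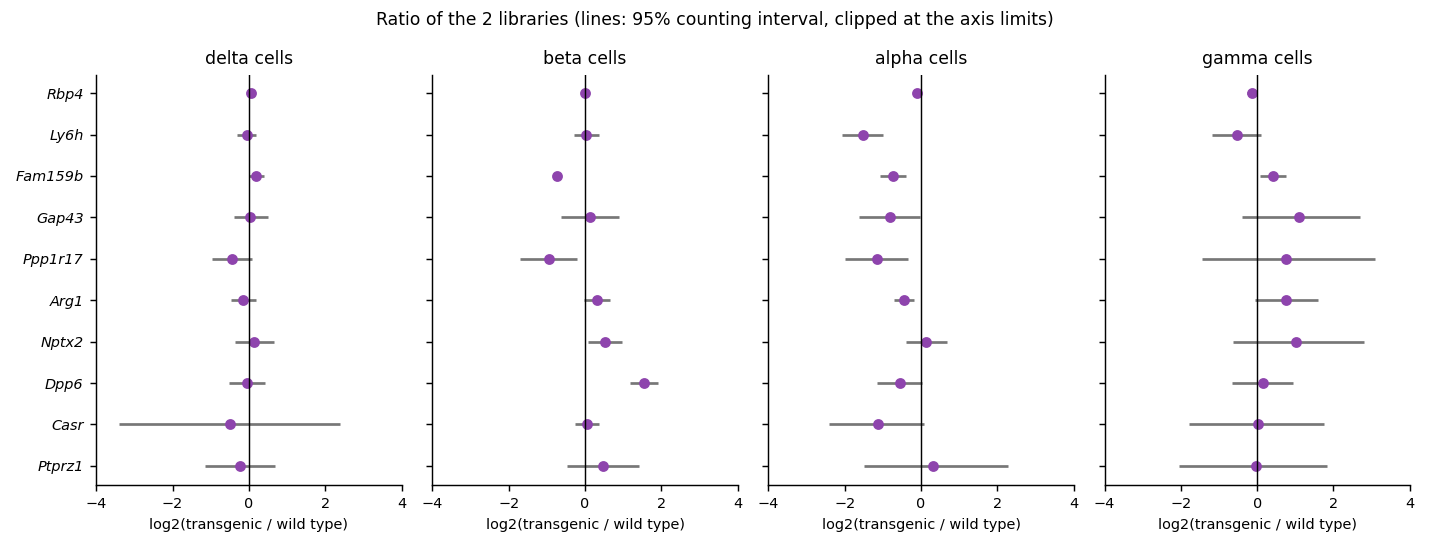
log2 ratio of transgenic over wild type for each gene in delta, beta, alpha and gamma cells, with 95% counting intervals as lines; the vertical line marks equality. All 10 intervals cross it in delta cells, while Dpp6 lies to the right and Fam159b to the left in beta cells.

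The other cell types held larger ratios of the same genes. In beta cells, where the transgene is labelled as active, Dpp6 was 2.92-fold higher in the transgenic library, at 4.35 CPM on 216 UMIs against 1.49 CPM on 89 UMIs, a log2 ratio of 1.54 (1.18 to 1.92). Fam159b was 1.65-fold lower, at 23.1 against 38.2 CPM, -0.73 (-0.83 to -0.62), and Ppp1r17 1.92-fold lower, at 0.464 against 0.889 CPM, -0.94 (-1.71 to -0.21). Thus 1 of 10 members was at least 1.5-fold higher and 2 at least 1.5-fold lower, beside 8.05% and 5.69% of 14229 genes. Sst in beta cells stood at 693 CPM in the transgenic and 461 CPM in the wild type library.

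The Dpp6 and Fam159b ratios in beta cells held under the 4 other cell selections tried. Dpp6 was at 2.03 (1.57 to 2.53) with stricter hormone gates, 1.43 (1.05 to 1.81) in cells with no Xist UMI and 1.47 (1.14 to 1.81) without doublet removal, all per non-hormone UMI. Fam159b ran between -0.80 in cells with no Xist UMI and -0.66 without doublet removal. The interval of Ppp1r17 included 0 with stricter gates, at -0.60 (-1.46 to 0.24), and without doublet removal, at -0.64 (-1.33 to 0.02). Nptx2 was at 0.53 (0.08 to 0.97) in the main comparison and at 0.36 (-0.12 to 0.84) in cells with no Xist UMI.

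In alpha cells 8 of the 10 genes were lower in the transgenic library. Of the 9 members with at least 20 UMIs there, 0 were at least 1.5-fold higher and 5 at least 1.5-fold lower, beside 6.16% and 5.67% of 11627 genes. The 5 were Ly6h (4.84 against 13.9 CPM), Fam159b (14.6 against 24.3 CPM), Gap43 (2.69 against 4.73 CPM), Ppp1r17 (2.26 against 5.00 CPM) and Casr (1.08 against 2.36 CPM). The Casr ratio rested on 10 and 17 UMIs, and its interval, -2.42 to 0.08, included equality, while those of the other 4 lay below it. Sst was lower there too, 1058 against 1599 CPM, a log2 ratio of -0.60. The stricter alpha gate asked for Gcg of at least 10%, insulin below 10%, and Sst and Ppy each below 2%. Sst was at 829 and 1040 non-hormone CPM in the cells it kept. With stricter gates, Ly6h in alpha cells gave -0.67 (-1.71 to 0.35), against -1.51 (-2.05 to -0.99) on the same scale without them. Gap43 changed sign there, at 0.30 (-1.06 to 1.76) on 14 and 8 UMIs, Ppp1r17 gave -0.51 (-1.93 to 0.91), and Fam159b kept -0.69 (-1.26 to -0.13). Several limits changed at once, and the part of Sst-containing droplets in the alpha cell ratios was not tested.

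In gamma cells 5 members had at least 20 UMIs. Of these only Arg1 was at least 1.5-fold higher, at 15.8 against 9.27 CPM on 30 and 24 UMIs, and 0 were at least 1.5-fold lower, beside 7.81% and 8.33% of 9076 genes. Its log2 ratio of 0.77 had an interval of -0.06 to 1.604. Fam159b was at 79.3 against 59.5 CPM, 0.42 (0.08 to 0.75), the reverse of its direction in beta and alpha cells. Sst was higher there too, at 4277 against 2364 CPM, a log2 ratio of 0.86 (0.81 to 0.90), and its part in the gamma cell ratios was not tested.

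**Figure D5:**
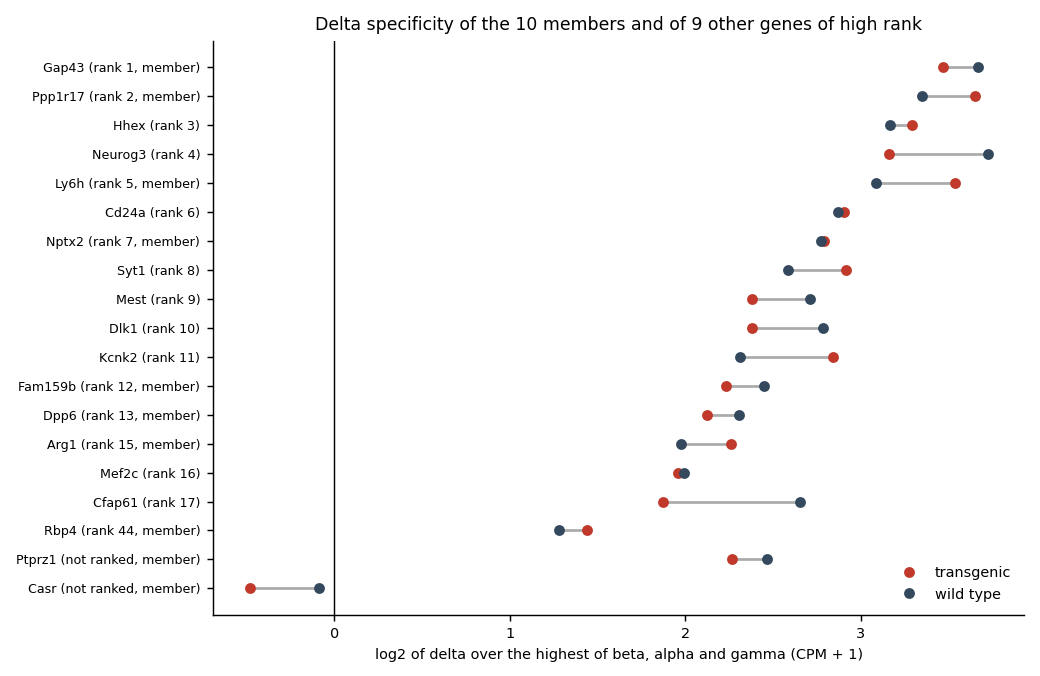
Delta specificity, the log2 ratio of delta cells over the highest of beta, alpha and gamma cells with 1 CPM added to both, for the 10 members and 9 other genes of high rank, transgenic (red) and wild type (dark). Genes run down the page by the lower of both libraries; Gap43 and Ppp1r17 lead, and Casr alone lies below 0.

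The genes most like the members by this specificity were ranked among the 4219 genes with at least 50 UMIs in delta cells of both libraries together. Gap43 ranked 1, Ppp1r17 2, Ly6h 5, Nptx2 7, Fam159b 12, Dpp6 13 and Arg1 15. Rbp4 ranked 44, held back by its alpha cell level, and Ptprz1 and Casr had too few UMIs to rank. The rank describes likeness of level over the 4 types in 2 libraries and used the same values as the selection.

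Other genes in the highest ranks were Hhex, Neurog3, Cd24a, Syt1, Mest, Dlk1, Kcnk2, Mef2c and Cfap61. Hhex, at a specificity of 3.17, encodes the delta cell homeobox factor. Neurog3, at 3.16, encodes the factor that sets endocrine progenitors on their course, and was at 26.7 transgenic and 21.4 wild type CPM in these delta cells on 39 and 22 UMIs. Cd24a, a surface glycoprotein gene, was the most abundant of these 9 at 443 and 405 CPM. Syt1 encodes the calcium sensor of synaptic vesicle release, Kcnk2 a background potassium channel, Mef2c a transcription factor of muscle and neurons, and Cfap61 a protein of cilia and flagella. Mest and Dlk1 are imprinted genes. Dlk1 was the only one of these 9 whose counting interval between genotypes excluded equality, at 45.2 transgenic against 67.0 wild type CPM, a log2 ratio of -0.57 (-1.08 to -0.06).

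The members' known partners were followed in 10 lists of 96 genes in all, drawn up with earlier results of these data known. Of the 96, 43 had at least 20 UMIs in delta cells, and 2 of these were at least 1.5-fold higher and 10 at least 1.5-fold lower in the transgenic library, beside the 8.41% and 8.45% of all genes given above. In both libraries 5 of the 43 were highest in delta cells, among them Gucy1a3, Ass1, Ptn and Mdk, beside 14.3% of all 7374 genes.

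Among the 16 retinoid genes, the partner of Rbp4 in plasma, Ttr, was at 1210.4 CPM in transgenic and 719 CPM in wild type delta cells, a log2 ratio of 0.75 (0.63 to 0.88). Ttr was at 34821 and 30987 CPM in alpha cells, so it is no delta gene. It was higher in the transgenic library in beta and gamma cells too, at 2625 against 1605 CPM and 2646 against 2163 CPM. The receptor gene Stra6, the esterifying Lrat and the retinaldehyde dehydrogenases Aldh1a1 and Aldh1a2 gave 0 UMIs in delta cells of both libraries. The nuclear receptor genes Rara and Rarg were at 7.53 and 5.47 CPM in transgenic and 16.5 and 13.6 CPM in wild type delta cells, with intervals that included equality.

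Of the 8 Kv4 channel genes, the pore-forming Kcnd1 gave 3 transgenic and 1 wild type UMIs in delta cells, Kcnd2 1 and 4, and Kcnd3 0 in both. The channel-interacting Kcnip1 was at 21.9 and 25.2 CPM and Dpp10, the relative of Dpp6, at 14.4 and 12.6 CPM. Of the 6 pentraxin and AMPA receptor genes, the receptor subunit Gria2 was at 40.4 and 34.0 CPM and the pentraxin receptor gene Nptxr at 15.7 and 15.5 CPM. Of the 10 genes set beside Ly6h, the nicotinic receptor genes Chrna3, Chrna4, Chrna5 and Chrna7 gave 0 UMIs in both, while the relative Ly6e was at 114 and 94.2 CPM and the receptor subunit Chrnb2 at 3.42 and 2.91 CPM.

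Both pleiotrophin-family ligands of Ptprz1 were seen in delta cells. Ptn was at 5.47 CPM on 8 transgenic UMIs and 15.5 CPM on 16 wild type UMIs, -1.51 (-2.94 to -0.20), and Mdk at 8.89 and 15.5 CPM, -0.80 (-1.98 to 0.34). The contactin gene Cntn1, whose product binds Ptprz1, was at 9.58 and 11.7 CPM. Of the 12 arginine genes, the ornithine decarboxylase gene Odc1 was at 125 and 117.5 CPM and the arginine transporter gene Slc7a1 at 27.4 and 41.8 CPM, -0.61 (-1.27 to 0.05). Nos1 and Nos2, whose enzymes compete for arginine, gave 0 UMIs in delta cells of both libraries.

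Of the 11 phosphatase and cGMP genes, the catalytic subunit gene Ppp1cb was at 122 and 109 CPM and the inhibitor gene Ppp1r1a at 105 and 104 CPM. The kinase genes Prkg1 and Prkg2 gave 0 UMIs in delta cells. Of the 7 growth cone genes, Basp1 was at 120 and 90.3 CPM, 0.41 (0.04 to 0.79). Of the 11 genes of calcium-sensing receptor signalling, Gnai2 was at 214 and 216 CPM and Gnaq at 39.0 and 59.2 CPM, -0.60 (-1.15 to -0.06). Of the 8 shisa relatives of Fam159b, Shisa5 was at 47.9 and 40.8 CPM and Shisa4 at 15.7 and 11.7 CPM, each with an interval that included equality.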

How the data were processed

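Islet cells were profiled with 10x Chromium 3′ version 2 reagents, per the labels' protocols. Reads were processed with Cell Ranger 2.1.0 and STAR 2.5.1b on mm10, per the submitters' processing notes. Neither these notes nor the labels name the annotation release or the barcode filter. What the authors deposited are raw UMI counts, whole numbers that were not normalized. The 10 genes, gates and partner lists were chosen with earlier results of these data known. Cells were kept with at least 500 genes, at least 1000 UMIs and at most 10% mitochondrial UMIs, which left 4143 transgenic and 4520 wild type cells. Scrublet (scanpy 1.11.5) marked 6 and 2 cells by its own threshold, under 0.5% of cells, so the top 4% of scores, 166 and 181 cells, were removed.

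UMIs of the 4 types in each library were summed to 8 columns and scaled with the trimmed mean of M-values (edgeR 4.0.16, R 4.3.3), in Python 3.11.15 with scipy 1.17.1. Ratios have exact conditional binomial intervals, levels Poisson intervals and shares exact Clopper-Pearson intervals, all 95%. UMIs are counted molecules, and the intervals cover counting error only. The ratio code was tested on simulated data. A ratio over all genes had 0.5 UMIs added. With 1 library per genotype no test was run. Named beside the 10 members were the 10 other genes with the highest delta specificity and at least 50 UMIs, and of each partner list the 2 genes with the highest level in delta cells and any gene at least 2-fold apart on at least 50 UMIs, of which there were 0. A few genes that this rule names are not reported here. Other partners were named after their values were seen. Scaling, gates, doublet removal, mitochondrial maximum, Xist-negative cells and thinning were varied. The gate as written was added as an alternative after seeing the data. Gene positions and names came from GENCODE M21 on GRCm38, the assembly of mm10; all 10 gene IDs matched.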

Additional observations from a re-analysis of the deposited data

Results flagged for a closer look

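In 4 genes the ratio of transgenic over wild type had opposite signs in delta cells and in another type, and the counting interval of the difference lay on 1 side of 0. With 1 library per genotype the differences between types were not tested against any spread between mice. In delta cells of the main comparison the ratio itself had an interval that included 0 for all 4. With the gate as written, those of Rbp4, -0.15 (-0.20 to -0.10), and Fam159b, 0.17 (0.06 to 0.29), did not. For Fam159b, the log2 ratio in delta cells exceeded that in beta cells by 0.92 (0.70 to 1.14) and that in alpha cells by 0.93 (0.55 to 1.30). For Dpp6, the ratio in delta cells minus that in beta cells was -1.59 (-2.17 to -1.01). For Arg1, delta minus beta was -0.47 (-0.93 to -0.01) and delta minus gamma -0.91 (-1.75 to -0.08). For Rbp4, delta minus alpha was 0.16 (0.06 to 0.25) and delta minus gamma 0.18 (0.03 to 0.34). The sign of the delta cell ratio was not stable for 3 of them. That of Rbp4, 0.05, was -0.02 with unscaled totals, -0.08 for the mean over cells and -0.15 with the gate as written, the sign it had in alpha and gamma cells. That of Arg1, -0.15, was 0.06 with the gate as written and 0.28 with the looser delta gate. That of Dpp6, -0.05, was 0.36 with stricter gates.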

How the results depend on the processing

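No paired analysis was possible because each genotype had 1 library. Among the members at least 1.5-fold lower in transgenic alpha cells, Gap43 reversed with stricter gates, 0.30 against -0.80 per non-hormone UMI in the main selection. In delta cells no member was past that fold, so no call could reverse. The delta cell number moved to 332 transgenic and 177 wild type cells where cells meeting several gates were kept, whether in every gate they met or as delta cells only, and to 49 and 24 cells with stricter gates. The count of members at least 1.5-fold lower in transgenic delta cells, 0 in the main comparison, was 1 for the mean over cells, 1 for the looser delta gate, 1 without Xist-positive cells and 2 with stricter gates. Casr made up each of these, with Ptprz1 added under stricter gates. The median share of delta cells with a member UMI, 35.6% and 37.5%, was 24.2% and 19.9% after thinning to 2000 non-hormone UMIs and 56.2% and 56.6% without thinning. The median log2 ratio of the members ran between -0.18 with stricter gates and 0.30 with the looser delta gate (main -0.05), under which there were 100 transgenic and 86 wild type cells, and which put Rbp4 at 0.34 and Ppp1r17 at 0.31; the cause was not tested. Of 110 alternative values of single members between genotypes 101 stayed within their counting interval, and of 200 for delta over the next type 136 did. The number of members highest in delta cells was 9 or 10 throughout. The limits of depth fall on Casr and Ptprz1, with 6 and 44 UMIs in all delta cells. Cells of 1 library are not replicates, and the spread between mice is unknown.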

Other observations

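Droplets with at least 25% insulin and an Sst share of at least 2% meet the beta gate and not the delta gate. There were 7 in the transgenic and 9 in the wild type library. They held 26 and 45 Ly6h UMIs, 202 and 284 CPM with the UMIs of the 5 gating hormone genes left out of the total, against 367 and 388 in delta cells. They also held 165 and 287 Rbp4 UMIs, 1284 and 1809 on that scale. Among alpha cells, 7 transgenic and 7 wild type cells showed 7 or more of the 10 genes before thinning, and among beta cells 4 and 3 did.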
